A study of Mus musculus with 9 samples.

Results

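Genes of the major histocompatibility complex (MHC) and of antigen presentation were described in endothelial cells (ECs) of mouse bone marrow. The members were all genes of the deposited expression table whose symbol begins with H2-, the mouse MHC prefix (25 genes), and 16 further genes chosen by name: the class I light chain B2m, the peptide loading genes Tap1, Tap2, Tapbp, Tapbpl and Erap1, the immunoproteasome genes Psmb8, Psmb9, Psmb10, Psme1 and Psme2, the transactivators Nlrc5 and Ciita, the class II invariant chain Cd74, and the class I-like genes Cd1d1 and Mr1. This gave 41 of 17232 listed genes, and all 41 were among the 16364 genes tested. Of these, 29 belong to the class I side, 11 to the class II side, and H2-Ke6, a hydroxysteroid dehydrogenase gene, was matched by its prefix alone. The rule reads gene symbols alone. Most lie in the MHC on chromosome 17 (25 H2- genes and Tap1, Tap2, Tapbp, Psmb8 and Psmb9).

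The ECs came from Nestin-GFP mice, for which the labels give no treatment and in which green fluorescent protein is driven by Nestin regulatory sequence. All groups carried this transgene, and the study analysed mice of both sexes at 6 to 14 weeks of age. CD31+ cells without CD45 and Ter119, the markers of white and red blood cells, were sorted into 3 groups: arterial ECs (AECs, PDPN-, Sca-1bright) with bright Nestin-GFP, AECs with dim Nestin-GFP, and sinusoidal ECs (SECs, PDPN+, Sca-1dim). Each group had 3 RNA-seq libraries, numbered 1, 3 and 4 in every group. The labels do not say whether a library came from 1 mouse or a pool, nor whether equal numbers mark the same mice, so p-values measure the spread between these libraries. Values are RPKM (reads per kilobase of gene, scaled for library size), and the libraries held 13896190 to 73475550 reads in listed genes (median 36720449). The reads carry no molecular identifiers.

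The labels were checked against marker lists. AECs were higher than SECs in 5 of 6 arterial genes, with Gja4, Bmx, Hey1 and Gja5 at the smallest adjusted p values (0.0007 to 0.0040, limma), and lower in 6 of 6 sinusoidal genes, among them Stab2, Dnase1l3, Ackr1 and Flt4. Against SECs, Nestin-GFPdim AECs alone were called higher in 5 of 6 arterial but lower in 1 of 6 sinusoidal genes. The 6 sinusoidal genes summed to 36.1 to 81.5 RPKM in Nestin-GFPbright AECs, 74.9 to 585 RPKM in Nestin-GFPdim AECs and 1977 to 3321 RPKM in SECs. The sort removed CD45+ cells, but transcripts of blood cells were present in unequal amounts. The 8 neutrophil genes took 0.555% to 16.3% of reads in AECs, against 0.00555% to 8.28% in SECs. The 8 B cell genes summed to 28.5 to 1215 RPKM in AECs, against 5.23 to 485 RPKM in SECs, the 7 pan-leukocyte genes to 333 to 5725 RPKM in AECs, against 306 to 2463 RPKM in SECs, and the 7 dendritic cell genes to 12.3 to 72.7 RPKM in AECs, against 12.1 to 42.7 RPKM in SECs. The libraries numbered 1 were highest in each group for all 3 of these sums, and SEC library 3 was lowest of all 9.

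MHC class I molecules are made by nearly every nucleated cell. A heavy chain pairs with β2-microglobulin, and the pair is filled in the endoplasmic reticulum with peptides that the proteasome has cut in the cytosol and the TAP transporter has carried across the membrane. MHC class II molecules pair an α and a β chain, travel with the invariant chain CD74 to endosomes, and are loaded there with the help of H2-DM. They are made constitutively by B cells, dendritic cells and thymic epithelium, and other cells, including ECs, can be induced by interferon-γ to make them. Transcription of both classes runs through shared promoter boxes, named X and Y, to which the RFX, CREB and NF-Y factors bind. CIITA for class II and NLRC5 for class I are the coactivators that dock on them.

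The boxes are shown because they occur upstream of members of both classes. The stretches below were taken from RefSeq starts on GRCm38.p6 and run 5′ to 3′ on the gene strand, upstream of the start. Capitals mark TGACG or TGATG (letters of the X2 part of the X box) and ATTGG (the reverse of the CCAAT letters of the Y box).
B2m, chr2:122147584-122147648, plus strand: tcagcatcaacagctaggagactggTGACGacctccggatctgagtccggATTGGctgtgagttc
H2-K1, chr17:34000349-34000413, minus strand: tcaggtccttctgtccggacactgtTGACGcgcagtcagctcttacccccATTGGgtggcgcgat
H2-D1, chr17:35262968-35263032, plus strand: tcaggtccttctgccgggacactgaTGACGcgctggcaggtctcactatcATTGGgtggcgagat
H2-Q7, chr17:35439066-35439129, plus strand: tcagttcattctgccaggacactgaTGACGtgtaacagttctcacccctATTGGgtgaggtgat
H2-Aa, chr17:34287857-34287922, minus strand: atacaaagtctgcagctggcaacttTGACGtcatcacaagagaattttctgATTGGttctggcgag
H2-Eb1, chr17:34305759-34305822, plus strand: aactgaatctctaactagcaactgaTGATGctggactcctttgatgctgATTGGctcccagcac
H2-DMb1, chr17:34153080-34153144, plus strand: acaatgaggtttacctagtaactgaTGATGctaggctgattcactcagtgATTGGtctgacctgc
H2-DMb2, chr17:34145109-34145173, plus strand: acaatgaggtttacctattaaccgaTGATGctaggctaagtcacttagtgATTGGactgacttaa
H2-Ob, chr17:34238801-34238862, plus strand: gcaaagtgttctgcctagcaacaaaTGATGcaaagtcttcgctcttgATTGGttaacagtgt

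Promoters were found for 29 of the 41 members, and the 250 bases before the start were searched. TGACG or TGATG starting 22 to 28 bases before ATTGG on the gene strand was found in 13 of these 29, against 0.429% of all 32851 promoters. The 13 were 7 of 11 class I heavy or light chain genes and 6 of 8 class II genes. The RefSeq start nearest the listed gene edge was used, with no limit on distance. For H2-DMa, counted as without the pair, the stretch used (chr17:34125268-34125567) lay away from the listed gene start at 34135182. This range of spacings was chosen after the sequences had been seen. Singly the letters are common: on either strand CCAAT stood in 33.8%, TGACG in 17.8% and TGATG in 34.5% of all promoters. In the 6 class II members the X2 letters were TGACG in H2-Aa and TGATG in the others. GAAA followed after any 2 bases by GAAA, as in an interferon response element, stood in the upstream bases of B2m, H2-T22 and H2-T23 (2.98% of all promoters), and GGGGA followed after any base by TCCC, as in an NF-κB site, in H2-K1, H2-D1, H2-Q6 and H2-Q7 (0.289% of all promoters). The letters are a description of these windows, and binding was not measured. The windows of H2-DMb1 and H2-DMb2, neighbouring genes for the β chain of H2-DM, were identical at 56 of 65 bases.

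Transcripts of class I genes were abundant in every library. B2m, the light chain, was at 2578, 3982 and 2860.1 RPKM in Nestin-GFPbright AECs (libraries 1, 3 and 4), 3756, 5342 and 3300.3 RPKM in Nestin-GFPdim AECs, and 3998, 7891 and 4046 RPKM in SECs. H2-D1, a classical heavy chain, was at 1829.5, 1882 and 1845 RPKM in Nestin-GFPbright AECs, 1570.4, 2002 and 1673 RPKM in Nestin-GFPdim AECs, and 1438, 1729.7 and 1411 RPKM in SECs. H2-K1, the other classical heavy chain, was at 525, 799 and 774 RPKM in Nestin-GFPbright AECs, 606, 921 and 705 RPKM in Nestin-GFPdim AECs, and 651, 999.7 and 703 RPKM in SECs. The lowest and the highest of the 9 libraries differed 1.42-fold for H2-D1 and 1.90-fold for H2-K1. Of the 4990 tested genes with a mean of at least 10 RPKM, 2.51% had a narrower spread than H2-D1 and 26.9% than H2-K1. B2m differed 3.06-fold, and 55.7% of these genes had a narrower spread. The median spread of these genes was 2.68-fold.

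**Figure D1:**
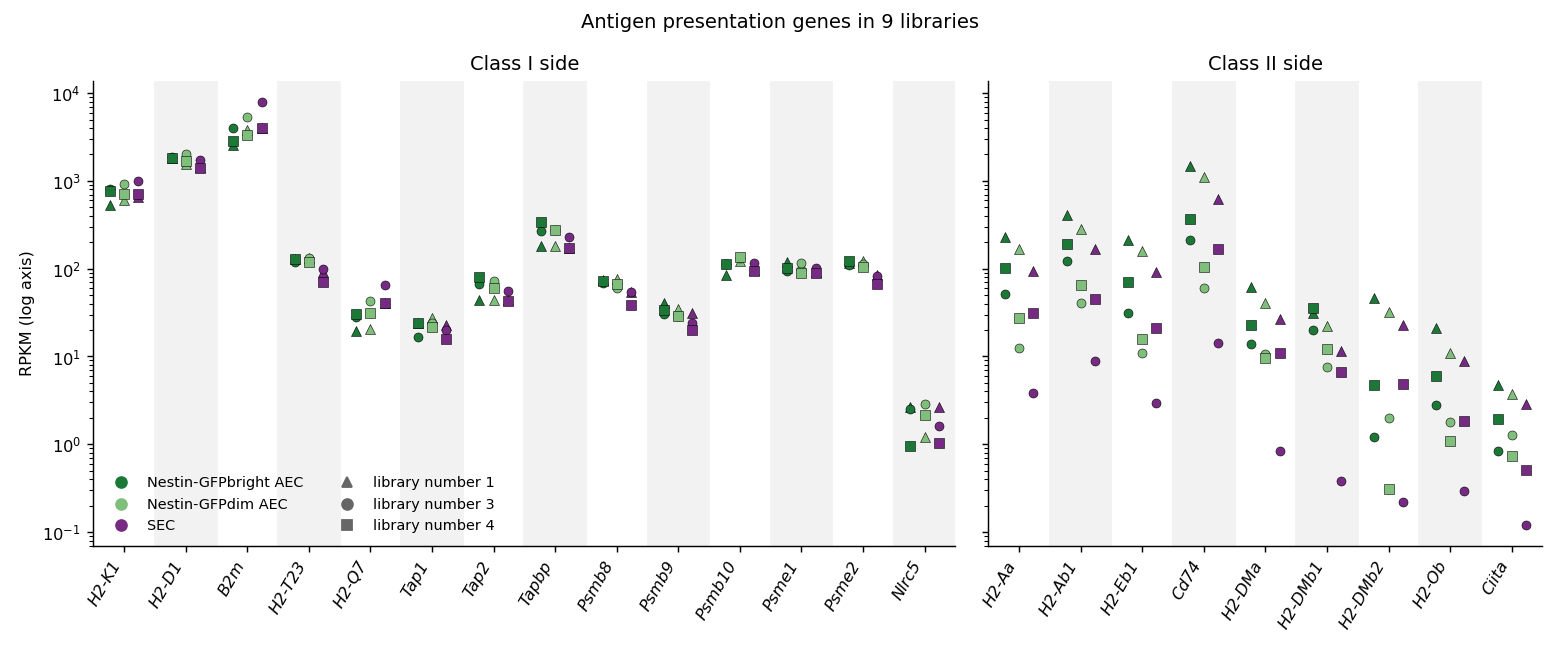
RPKM (log axis) of antigen presentation genes in each of 9 libraries. Colours stand for the 3 groups and marker shapes for the library number. The class I genes plotted span 1.35-fold (Psme1) to 3.41-fold (H2-Q7), with H2-D1 from 1411 to 2002 RPKM. Each class II gene spans more than 10-fold. A triangle (a library numbered 1) is highest for every class II gene plotted except H2-DMb1, and SEC library 3 is lowest for every one.

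None of the 41 members was called between AECs and SECs. At an adjusted p under 0.05, 0 members were higher (1.94% of all tested genes) and 0 lower (2.99%), against 4.93% of all tested genes called in either direction (limma, both AEC groups averaged against SECs). At an unadjusted p under 0.05 there were 7 members (14.7% of all tested genes), and the smallest adjusted p was 0.107, for Psme2. Counts were also 0 of 41 for Nestin-GFPbright AECs against SECs (7 unadjusted, where 4.58% of tested genes were called, 1.74% higher and 2.85% lower, and 14.9% had an unadjusted p under 0.05), for Nestin-GFPdim AECs against SECs (5 unadjusted, where 1.95% were called, 0.764% higher and 1.19% lower, and 10.9% had an unadjusted p under 0.05) and for Nestin-GFPbright against Nestin-GFPdim AECs (0 unadjusted, where 0% were called and 4.91% had an unadjusted p under 0.05). The libraries of 3 members did not overlap and were higher in AECs (H2-T23, Psmb8 and Psme2; 4.68% of tested genes), and those of 0 were lower (5.77%). Without overlap, 7 members were higher (10.2% of tested genes) and 3 lower (12.2%) in Nestin-GFPbright AECs than in SECs, 6 were higher (7.6%) and 0 lower (9.39%) in Nestin-GFPdim AECs than in SECs, and 0 were higher (3.62%) and 1 lower (3.85%) in Nestin-GFPbright than in Nestin-GFPdim AECs. The 7 higher members include H2-Bl, at no more than 9 reads in any library. Members that move together are not independent, and these counts were not tested against the shares of all genes. With the library number as a block, no member was called for Nestin-GFPdim AECs against SECs or between the AEC fractions. Of all genes, 644 in place of 319 were called for Nestin-GFPdim AECs against SECs and 3 in place of 0 between the AEC fractions. The block called 3 members for AECs against SECs (H2-T24, H2-Ab1 and H2-DMb1) and 7 for Nestin-GFPbright AECs against SECs. In these comparisons it called 1333 and 1391 of all 16364 genes. The numbers were not shown to pair the libraries numbered 4 in any comparison. Without the block, the 6 AEC libraries entered as independent. With weights per library, 4 members were called for AECs against SECs and 4 for Nestin-GFPbright AECs against SECs, all higher. A p that misses the threshold does not show equal levels, and the 95% intervals of the log2 differences in the plot of all 41 genes state what sizes remained possible.

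**Figure D2:**
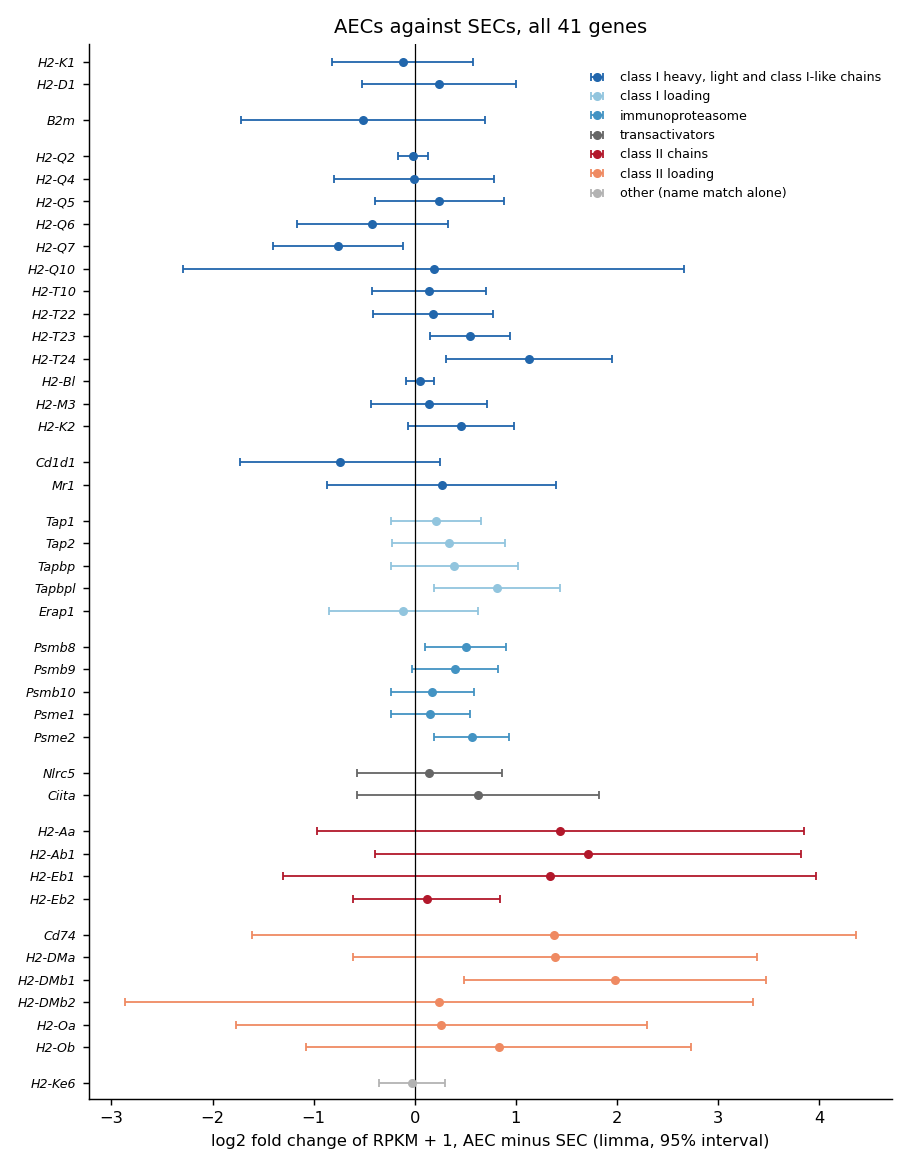
Log2 fold change of RPKM + 1 in AECs (6 libraries) minus SECs (3 libraries) for all 41 genes, with 95% intervals from limma. Points right of 0 are higher in AECs. No gene passed an adjusted p under 0.05. The 11 class II side genes (Ciita included) all lie right of 0, most with wide intervals, and the 29 class I side genes lie on both sides (21 right of 0), with narrower intervals for most but not for H2-Q10.

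Among the class I members, B2m was lower and H2-D1 higher in AECs than in the SEC library of the same number, and neither passed the test. Means are given with the SD over 6 AEC and 3 SEC libraries. B2m averaged 3636 ± 988 RPKM in AECs and 5312 ± 2234 RPKM in SECs, a log2 fold change of -0.51 (SE 0.53, adjusted p = 0.84). Each AEC library was below the SEC library of the same number, at 0.505 to 0.939 of its level. H2-D1 averaged 1800.4 ± 155 RPKM in AECs and 1526 ± 177 RPKM in SECs (log2 fold change 0.24, SE 0.34, adjusted p = 0.91), and each AEC library was above the SEC library of its number, at 1.09 to 1.31 times its level. H2-K1 averaged 722 ± 142 RPKM in AECs and 785 ± 188 RPKM in SECs (log2 fold change -0.12, SE 0.31, adjusted p = 0.95), and without SEC library 3 it was 0.069. The 15 heavy chains together summed to 2519 to 3384 RPKM in AECs, against 2449.7 to 3222 RPKM in SECs. Within a library, B2m divided by this sum was 0.956, 1.29 and 0.934 in Nestin-GFPbright AECs, 1.49, 1.58 and 1.19 in Nestin-GFPdim AECs, and 1.63, 2.45 and 1.65 in SECs. The 6 AEC libraries lay below the 3 SEC libraries, and this ratio, which does not depend on the scaling between libraries, was formed after the levels had been seen and was not tested.

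The nonclassical heavy chains held the members with the smallest p values of the class I chains. H2-T23, the ligand of the CD94/NKG2A receptor of natural killer cells, was at 129, 119.9 and 129 RPKM in Nestin-GFPbright AECs, 132, 132 and 118 RPKM in Nestin-GFPdim AECs, and 91.8, 100.01 and 70.4 RPKM in SECs. All 6 AEC libraries were above all 3 SEC libraries, as were 4.68% of all tested genes, with a log2 fold change of 0.54 (SE 0.17, adjusted p = 0.15). H2-T24 averaged 15.4 ± 5.74 RPKM in AECs and 6.57 ± 3.26 RPKM in SECs (log2 fold change 1.13, SE 0.36, adjusted p = 0.15). Its libraries overlapped, but each AEC library was at 1.87 to 3.46 times its same-numbered SEC library. H2-T24 was also highest in library 1 of each group and lowest of all libraries in SEC library 3. The B cell, pan-leukocyte and dendritic cell sums had the same highest and lowest libraries. The part of blood cells in the H2-T24 levels was not tested. H2-Q7 averaged 28.8 ± 8.58 RPKM in AECs and 49.0 ± 14.6 RPKM in SECs (log2 fold change -0.76, SE 0.28, adjusted p = 0.24). All 6 AEC libraries were below their same-numbered SEC library for H2-Q7. The neighbouring H2-Q6 averaged 133 ± 39.6 RPKM in AECs and 175 ± 46.3 RPKM in SECs, and both genes share transcript sequence with other H2-Q genes: 32.0% of the 50-base stretches of H2-Q6 and 26.4% of those of H2-Q7 occur in another annotated gene.

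The other class I chains were accounted for by level. H2-M3, which presents formylated peptides, was at 28.7 to 53.4 RPKM in AECs, against 29.3 to 47.8 RPKM in SECs, and H2-T22, a ligand of γδ T cell receptors, at 12.9 to 25.4 RPKM in AECs, against 13.6 to 19.8 RPKM in SECs. H2-Q4, H2-Q5, H2-K2 and H2-T10 had medians of 7.36, 10.6, 6.93 and 1.08 RPKM over the 9 libraries, and H2-T10 shares 31.7% of its 50-base stretches with H2-T22. H2-Q2 and H2-Bl had at most 16 and 9 reads in any library. H2-Q10, a secreted class I chain known from mouse liver, stood apart, at 16.2 and 13.6 RPKM in library 1 of Nestin-GFPbright and Nestin-GFPdim AECs and 6.35 RPKM in that of SECs, against 0.124 RPKM in Nestin-GFPbright AEC library 3 at the lowest. It was the 1 class I side gene with a spread above 10-fold. Cd1d1, which presents lipids to NKT cells, averaged 8.47 ± 4.69 RPKM in AECs and 13.8 ± 4.76 RPKM in SECs (log2 fold change -0.74, SE 0.43, adjusted p = 0.54), and was below the same-numbered SEC library in all 6 AEC libraries. Mr1, which presents vitamin B metabolites to MAIT cells, was at 3.90 to 18.5 RPKM in AECs, against 5.20 to 13.4 RPKM in SECs.

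No gene of peptide supply passed the test between AECs and SECs. Of the 10 loading and immunoproteasome members, 9 had a positive log2 fold change in AECs, with a median of 0.36 against 0.03 for all tested genes, and 0 were called. Psme2, the β subunit of the PA28 proteasome activator, was at 117, 111 and 122 RPKM in Nestin-GFPbright AECs, 123, 114 and 105 RPKM in Nestin-GFPdim AECs, and 84.1, 82.8 and 66.8 RPKM in SECs. Its groups did not overlap (log2 fold change 0.56, SE 0.16, adjusted p = 0.11), and 28.3% of its 50-base stretches occur in Psme2b. Its partner subunit Psme1 averaged 106 ± 12.2 RPKM in AECs and 94.5 ± 6.53 RPKM in SECs (log2 fold change 0.15, SE 0.17, adjusted p = 0.86), the narrowest spread of the members at 1.35-fold. The difference was thus 0.56 for one subunit and 0.15 for the other on the log2 scale, and the contrast between them was not tested.

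The immunoproteasome replaces the 3 catalytic subunits of the constitutive proteasome: Psmb8 stands in for Psmb5, Psmb9 for Psmb6 and Psmb10 for Psmb7. Psmb8 was at 74.0, 69.3 and 71.5 RPKM in Nestin-GFPbright AECs, 77.1, 59.9 and 66.7 RPKM in Nestin-GFPdim AECs, and 54.7, 54.7 and 38.8 RPKM in SECs, again without overlap (log2 fold change 0.50, SE 0.18, adjusted p = 0.20). Psmb9 was at 40.4, 30.6 and 34.02 RPKM in Nestin-GFPbright AECs, 34.4, 29.1 and 29.3 RPKM in Nestin-GFPdim AECs, and 30.9, 24.4 and 19.8 RPKM in SECs (log2 fold change 0.40, SE 0.19, adjusted p = 0.39). Psmb10 was at 84.4, 113 and 113 RPKM in Nestin-GFPbright AECs, 122, 133 and 136 RPKM in Nestin-GFPdim AECs, and 96.2, 117 and 94.9 RPKM in SECs (log2 fold change 0.17, SE 0.18, adjusted p = 0.84). For Psmb10 the 3 Nestin-GFPbright AEC libraries lay below the 3 Nestin-GFPdim AEC libraries, as in 3.85% of tested genes (log2 fold change -0.35, SE 0.21, adjusted p = 0.998). The constitutive partners were close in mean level between the cell types: Psmb5 averaged 60.9 ± 12.8 RPKM in AECs and 60.7 ± 7.80 RPKM in SECs. Of the 14 constitutive proteasome genes 0 were called, where 4.93% of all tested genes were, and their median log2 fold change was 0.08.

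The ratio of each immune subunit to its constitutive partner was taken within each library. Psmb8 over Psmb5 was 0.884, 1.42 and 1.25 in Nestin-GFPbright AECs, 1.15, 1.14 and 1.196 in Nestin-GFPdim AECs, and 0.785, 0.955 and 0.704 in SECs. One AEC library, Nestin-GFPbright library 1, fell within the SEC range, and the other 5 were above it. Psmb9 over Psmb6 was 0.227 to 0.353 in AECs, against 0.200 to 0.282 in SECs, and Psmb10 over Psmb7 was 0.937 to 2.06 in AECs, against 1.21 to 1.33 in SECs. Both overlapped between the cell types. Transcript levels of the immune subunits in these 9 libraries were thus 0.704 to 1.42 of the partner for Psmb8 and 0.937 to 2.06 for Psmb10. For Psmb9 they were 0.353 or less of the partner. The part of blood cells in these ratios was not tested.

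**Figure D3:**
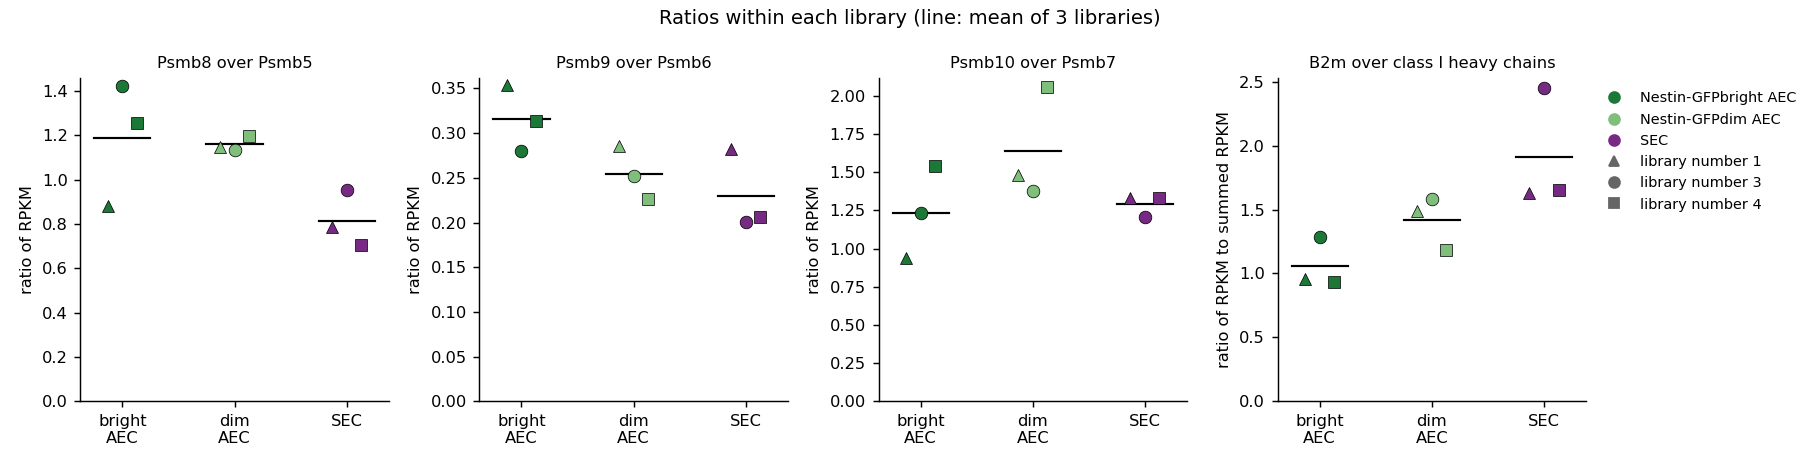
RPKM of each immunoproteasome subunit divided by that of its constitutive partner, and B2m divided by the summed RPKM of 15 class I heavy chains, in each library (points; axes start at 0) with the mean of 3 libraries (lines). Psmb8 over Psmb5 is 0.884 to 1.42 in AECs and 0.704 to 0.955 in SECs, and B2m over heavy chains is 0.934 to 1.58 in AECs and 1.63 to 2.45 in SECs.

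The transporter and the peptide editors did not pass the test either. Tap1, a subunit of the peptide transporter, was at 23.998, 16.8 and 24.1 RPKM in Nestin-GFPbright AECs, 27.1, 24.2 and 21.6 RPKM in Nestin-GFPdim AECs, and 23.1, 20.1 and 16.02 RPKM in SECs (log2 fold change 0.21, SE 0.19, adjusted p = 0.80). Tap2, its partner, was at 43.7, 66.1 and 80.0 RPKM in Nestin-GFPbright AECs, 44.3, 73.0 and 60.2 RPKM in Nestin-GFPdim AECs, and 43.7, 55.0 and 43.4 RPKM in SECs (log2 fold change 0.34, SE 0.24, adjusted p = 0.68). Tapbp, tapasin, which bridges the transporter and the class I molecule, was at 179.9, 271 and 339.9 RPKM in Nestin-GFPbright AECs, 179, 279 and 276 RPKM in Nestin-GFPdim AECs, and 173, 229.7 and 169.9 RPKM in SECs (log2 fold change 0.39, SE 0.28, adjusted p = 0.67). For Tapbp each AEC library was above its same-numbered SEC library, and for all 3 genes the groups overlapped. Tapbpl, a second peptide editor, averaged 35.6 ± 8.80 RPKM in AECs and 19.7 ± 5.24 RPKM in SECs (log2 fold change 0.82, SE 0.27, adjusted p = 0.17), and Erap1, which trims peptides, was at 20.3 to 54.4 RPKM in AECs, against 30.2 to 47.7 RPKM in SECs. Tap1 and Psmb9 are listed head to head with 212 shared bases (chr17:34187553-34187764), and Tapbp and Tapbpl overlap Zbtb22 and Vamp1. The listed spans of B2m and Psmb10 lie within those of Patl2 and Gm16156 (medians of 0.0288 and 0.0744 RPKM). Reads in shared bases could belong to either gene, and whether they were counted or set aside is not stated. Of 20 further listed genes of class I folding and trimming (Calr, Canx and Pdia3 among them) 0 were called between AECs and SECs, where 4.93% of all genes were, and their median log2 fold change was -0.21, with Calr at -0.62 and Canx at -0.64.

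Class II transcripts spanned a wide range over the libraries, and the cell types overlapped. H2-Ab1, the β chain of H2-A, was at 405, 122 and 189.8 RPKM in Nestin-GFPbright AECs, 284, 40.4 and 64.7 RPKM in Nestin-GFPdim AECs, and 169, 8.89 and 45.2 RPKM in SECs. H2-Aa, the α chain, was at 227, 52.0 and 102 RPKM in Nestin-GFPbright AECs, 169.5, 12.6 and 27.6 RPKM in Nestin-GFPdim AECs, and 93.4, 3.81 and 30.9 RPKM in SECs. H2-Eb1, the β chain of H2-E, was at 213, 31.6 and 70.9 RPKM in Nestin-GFPbright AECs, 161, 10.8 and 15.9 RPKM in Nestin-GFPdim AECs, and 90.8, 2.95 and 20.9 RPKM in SECs. The library numbered 1 was highest in each group for all 3 chains, SEC library 3 was lowest of all, and AEC and SEC libraries overlapped. The 9 libraries spanned 45.6-fold for H2-Ab1, and 89.4% of tested genes with a mean of at least 10 RPKM had a narrower spread. H2-Eb2 had no read in library 3 of any group and at most 144 reads elsewhere, and an Ea chain was not analysed here.

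Cd74, the invariant chain, was at 1462, 212 and 369 RPKM in Nestin-GFPbright AECs, 1099, 59.5 and 104 RPKM in Nestin-GFPdim AECs, and 628, 14.3 and 169 RPKM in SECs. H2-DMa, the α chain of H2-DM, was at 61.3, 13.9 and 23.005 RPKM in Nestin-GFPbright AECs, 40.8, 10.6 and 9.60 RPKM in Nestin-GFPdim AECs, and 26.7, 0.831 and 10.8 RPKM in SECs. H2-Ob, the β chain of H2-DO, which restrains H2-DM in B cells, was at 21.0, 2.83 and 6.06 RPKM in Nestin-GFPbright AECs, 11.1, 1.77 and 1.10 RPKM in Nestin-GFPdim AECs, and 8.91, 0.297 and 1.82 RPKM in SECs. All 3 were highest in the libraries numbered 1 and lowest in SEC library 3. H2-Oa, the α chain of H2-DO, had 9.78, 0.570 and 1.80 RPKM in Nestin-GFPbright AECs, 7.62, 0.391 and 0.0599 RPKM in Nestin-GFPdim AECs, and 5.38 and 1.21 RPKM in SEC libraries 1 and 4, with no read in SEC library 3.

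The 2 genes for the H2-DM β chain differed from each other. H2-DMb1 was at 31.0, 19.9 and 35.9 RPKM in Nestin-GFPbright AECs, 22.4, 7.56 and 12.1 RPKM in Nestin-GFPdim AECs, and 11.4, 0.380 and 6.59 RPKM in SECs. H2-DMb2 was at 45.9, 1.201 and 4.74 RPKM in Nestin-GFPbright AECs, 32.4, 2.01 and 0.313 RPKM in Nestin-GFPdim AECs, and 22.6, 0.221 and 4.89 RPKM in SECs. H2-DMb2 was high in the 3 libraries numbered 1 and at 4.89 RPKM or less in the other 6, whereas H2-DMb1 was at 7.56 RPKM or more in every AEC library. H2-DMb1 over H2-DMb2 within a library was 0.675, 16.6 and 7.58 in Nestin-GFPbright AECs, 0.691, 3.77 and 38.7 in Nestin-GFPdim AECs, and 0.507, 1.72 and 1.35 in SECs. All 3 libraries numbered 1 were below 1, and the other 6 were above it. The genes share 22.7% of the 50-base stretches of H2-DMb1, so some reads could not be told apart by sequence, and the promoter stretches printed above for both differ at few bases.

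The log2 fold changes of class II members were positive throughout and uncertain. All 11 class II side members were positive for AECs minus SECs, with a median of 1.33 against 0.03 for all tested genes. H2-DMb1 had the largest, 1.98 (SE 0.65, 95% interval 0.49 to 3.48, adjusted p = 0.17), followed by H2-Ab1 at 1.71 (SE 0.92, interval -0.40 to 3.82, adjusted p = 0.49), H2-Aa at 1.44 (SE 1.06, adjusted p = 0.69) and H2-DMa at 1.38 (SE 0.87, adjusted p = 0.59). Cd74 was at 1.37 (SE 1.31, interval -1.61 to 4.36, adjusted p = 0.81) and H2-Eb1 at 1.33 (SE 1.15, adjusted p = 0.77). H2-Ob was at 0.83, H2-Oa at 0.26 and H2-DMb2 at 0.24, each with an adjusted p of 0.83 or more. The genes moved together over the libraries, so 11 signs are not 11 independent observations.

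The size of this difference depended on single libraries, most of all on SEC library 3. Without it the median of the 11 members was 0.17 with 7 positive, Cd74 was at -0.10, H2-Ab1 at 0.65 and H2-DMb1 at 1.04. The median was 2.33 without SEC library 1 and 0.75 without Nestin-GFPdim AEC library 1, and with weights per library it was 0.53. With the libraries numbered 1 left out of every group, the median of the 10 members then tested was 1.52 with 9 positive, and H2-Ab1 was at 2.06 (adjusted p = 0.15) and H2-DMb1 at 2.41 (adjusted p = 0.14). Between libraries of the same number, H2-Ab1 was higher in AECs in 6 of 6 comparisons, at 1.43 to 13.7 times the SEC level, and H2-DMb1 in 6 of 6, at 1.84 to 52.5 times. For Cd74, H2-Aa, H2-Eb1 and H2-DMa it was 5 of 6, the exception being Nestin-GFPdim AEC library 4 against SEC library 4. These comparisons share SEC libraries and are a description.

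Nestin-GFPbright AECs had higher class II levels than Nestin-GFPdim AECs of the same number in the listed values of H2-Ab1, H2-Aa, H2-Eb1, Cd74, H2-DMa and H2-DMb1. The median log2 fold change of the 11 class II side members between the AEC fractions was 1.03, against 0.01 for all tested genes, and all 11 were positive, but the smallest adjusted p of any member was 0.998. H2-Ab1 had 1.21 (SE 1.07) and Cd74 1.35 (SE 1.51). Without Nestin-GFPbright AEC library 1 the median was 0.44, with 7 of the 10 members then tested positive. Without Nestin-GFPdim AEC library 3 or 4 it was 0.52 or 0.54, with 11 or 9 of 11 positive. Without Nestin-GFPbright AEC library 3 or Nestin-GFPdim AEC library 1 it was 1.60 or 1.91. Genes of blood cells moved the same way between the AEC fractions, with medians of 1.07 for the 8 B cell, 1.33 for the 7 pan-leukocyte and 1.90 for the 8 neutrophil genes, and Cd79a, a B cell gene, was higher in the Nestin-GFPbright library of each number. Their part in the difference was not tested. Against SECs, the class II medians were 1.74 for Nestin-GFPbright AECs and 0.68 for Nestin-GFPdim AECs. Leaving out 1 library gave 0.64 (without SEC library 3) to 2.85 (without SEC library 1) for Nestin-GFPbright AECs. For Nestin-GFPdim AECs the median was -0.38 without Nestin-GFPdim AEC library 1, -0.36 without SEC library 3 and -0.01 with weights per library, and 1.74 at the highest, without SEC library 1. H2-DMb1 reached 2.52 (SE 0.76, adjusted p = 0.12) in Nestin-GFPbright AECs and 1.44 (SE 0.76, adjusted p = 0.60) in Nestin-GFPdim AECs, both against the same 3 SEC libraries.

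Class II levels moved with transcripts of B cells over the libraries. Cd79a, a signalling chain of the B cell receptor, was at 410.3, 30.5 and 52.1 RPKM in Nestin-GFPbright AECs, 295, 17.3 and 2.52 RPKM in Nestin-GFPdim AECs, and 166, 1.83 and 46.1 RPKM in SECs. It was highest in the libraries numbered 1 and lowest in SEC library 3, as were most class II genes. H2-DMb2 over Cd79a was 0.0910 to 0.136 in 8 libraries and 0.0393 in Nestin-GFPbright AEC library 3, although Cd79a itself spanned 1.83 to 410.3 RPKM. In bulk RNA, fewer cells of a type and less RNA per cell cannot be told apart.

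H2-Ab1, Cd74 and H2-DMb1 did not keep a steady ratio to Cd79a. H2-Ab1 over Cd79a was 0.963 to 1.02 in the libraries numbered 1 and 0.981 in SEC library 4, but 3.998 and 3.65 in Nestin-GFPbright AEC libraries 3 and 4, 2.34 and 25.6 in Nestin-GFPdim AEC libraries 3 and 4, and 4.86 in SEC library 3. Nestin-GFPdim AEC library 4 and SEC library 3 had like Cd79a levels (2.52 RPKM in the AEC library and 1.83 RPKM in the SEC library) and unlike class II levels. The AEC library had 64.7 RPKM of H2-Ab1, 104 RPKM of Cd74 and 12.1 RPKM of H2-DMb1, against 8.89, 14.3 and 0.380 RPKM of these genes in the SEC library. This pair differed in other blood cell genes too: the AEC library had 1.73 RPKM of Ptprc, 5.31 RPKM of Csf1r, 14.6 RPKM of Ctss and a B cell sum of 28.5 RPKM, against 0.0752, 0.224 and 0.846 RPKM and a B cell sum of 5.23 RPKM in the SEC library. Nestin-GFPbright AEC library 4 and SEC library 4 were closer in these genes. The AEC library had 52.1 RPKM of Cd79a, 12.6 RPKM of Ptprc, 19.5 RPKM of Csf1r and a B cell sum of 185 RPKM, against 46.1, 10.7 and 16.3 RPKM and a B cell sum of 142 RPKM in the SEC library. H2-Ab1 was at 189.8 RPKM in this AEC library and 45.2 RPKM in this SEC library. Over the class II genes, this AEC library was at 0.970 (H2-DMb2) to 5.45 (H2-DMb1) times this SEC library, with Cd74 at 2.19 times. The part of blood cells in the differences within these pairs was not tested. H2-DMb1 over Cd79a was 0.0689 to 0.0759 in the 3 libraries numbered 1, 0.438 to 4.80 in the other 4 AEC libraries, and 0.208 and 0.143 in SEC libraries 3 and 4. Cd74 over H2-Ab1 formed 2 ranges, 3.61 to 3.87 in the libraries numbered 1 and SEC library 4, and 1.47 to 1.94 in the other 5.

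**Figure D4:**
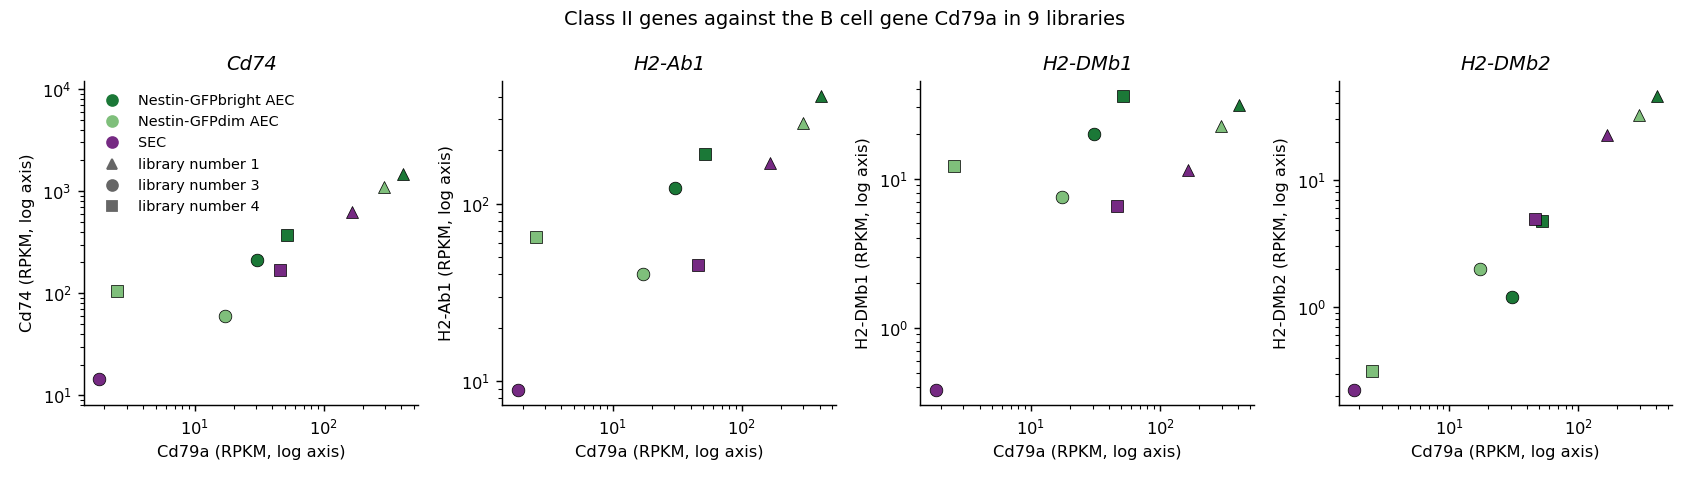
RPKM of Cd74, H2-Ab1, H2-DMb1 and H2-DMb2 (vertical, log axes) against RPKM of the B cell gene Cd79a (horizontal, log axes) in 9 libraries. H2-DMb2 lies near a line (0.0393 to 0.136 of Cd79a), while Nestin-GFPdim AEC library 4, the light square at the left, is above SEC library 3 for Cd74, H2-Ab1 and H2-DMb1 (12.1 against 0.380 RPKM for H2-DMb1) at nearly the same Cd79a, although Ptprc (1.73 against 0.0752 RPKM) and other blood cell genes also differed between them.

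Other cell types that make class II were also traced. Ptprc, which encodes CD45, was at 1.73 to 44.5 RPKM in AECs, against 0.0752 to 18.6 RPKM in SECs. The dendritic cell gene Itgax was at most 2.87 RPKM and had no read in Nestin-GFPdim AEC libraries 3 and 4 and in SEC library 3. Flt3, of dendritic cells and progenitors, was at 0.0391 to 3.68 RPKM in AECs, against 0.0101 to 1.32 RPKM in SECs. The macrophage gene Csf1r was at 0.615 to 20.7 RPKM in AECs, against 0.224 to 16.3 RPKM in SECs, and the 7 macrophage genes summed to 30.3 to 94.8 RPKM in AECs, against 18.6 to 68.0 RPKM in SECs. The dendritic cell and macrophage sums were lowest in SEC library 3. No gene of the dendritic cell, macrophage, T cell, neutrophil, pan-leukocyte, megakaryocyte and pan-endothelial lists was called between AECs and SECs, where 4.93% of all tested genes were. The median log2 fold changes of these lists were 2.74 for neutrophil, 1.21 for pan-leukocyte, 0.69 for megakaryocyte, 0.39 for T cell, 0.25 for dendritic cell, -0.17 for macrophage and -0.24 for pan-endothelial genes. The median was 0.74 for the B cell genes, of which Ebf1 was called higher. It was 0.49 for the 4 plasma cell genes tested, of which Xbp1 was called lower. The part of these cells in the class II levels was not tested.

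The transactivators were low. Ciita, the class II coactivator, was at 4.76, 0.837 and 1.96 RPKM in Nestin-GFPbright AECs, 3.77, 1.27 and 0.741 RPKM in Nestin-GFPdim AECs, and 2.91, 0.121 and 0.503 RPKM in SECs (log2 fold change 0.63, SE 0.52, adjusted p = 0.75). It was highest in the libraries numbered 1 and lowest in SEC library 3, as most class II genes were, with each AEC library at 1.30 to 10.5 times its same-numbered SEC library. Its span lies over that of Dexi in the listed positions, and reads in shared bases could belong to either. Nlrc5, the class I coactivator, was at 2.64, 2.50 and 0.963 RPKM in Nestin-GFPbright AECs, 1.21, 2.87 and 2.18 RPKM in Nestin-GFPdim AECs, and 2.67, 1.61 and 1.03 RPKM in SECs (log2 fold change 0.14, SE 0.31, adjusted p = 0.95). Nlrc5 spanned 2.98-fold and was not lowest in SEC library 3. Of 16 listed transcription factor genes for MHC promoters, the RFX and NF-Y subunits among them, 0 were called in AECs against SECs, where 4.93% of all tested genes were.

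Of 11 listed endosomal and accessory genes around class II, 2 were lower in AECs and 1 higher at an adjusted p under 0.05, against 2.99% of all tested genes lower and 1.94% higher, and the median over these 11 genes was 0.41 on the log2 scale. Ctsl, cathepsin L, a lysosomal protease that can degrade the invariant chain, averaged 408 ± 381 RPKM in AECs and 4405 ± 1356 RPKM in SECs (log2 fold change -3.76, SE 0.53, adjusted p = 0.0057). Lgmn, legumain, an asparaginyl endopeptidase, averaged 122 ± 144 RPKM in AECs and 733 ± 281 RPKM in SECs (log2 fold change -3.08, SE 0.55, adjusted p = 0.016). Cd9, a tetraspanin found with class II molecules, averaged 307 ± 44.8 RPKM in AECs and 164 ± 27.1 RPKM in SECs (log2 fold change 0.90, SE 0.21, adjusted p = 0.049). Ctss, cathepsin S, the protease of invariant chain cleavage in B cells and dendritic cells, was at 148, 10.3 and 61.6 RPKM in Nestin-GFPbright AECs, 90.4, 23.7 and 14.6 RPKM in Nestin-GFPdim AECs, and 66.4, 0.846 and 44.1 RPKM in SECs. Ctss thus had its highest values in libraries numbered 1 and its lowest in SEC library 3, unlike Ctsl, for which every SEC library was above every AEC library.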

How the data were processed

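RNA of 9 sorted EC libraries was read single-end after SMART-Seq v4 amplification. The authors used STAR for alignment, htseq-count for counting and edgeR 3.12.0 for scaling (TMM), and the deposited table holds log2 RPKM per gene and library. The submitters' processing notes name mm9, whereas the listed gene positions match GRCm38. RPKM was taken as the antilog of the deposited log2 values, with the authors' prior of 0.25 reads left in. Reads were recovered from these values (155085 of 155088 whole within 0.001 reads), all library columns were used, and voom on the recovered reads called 894 genes in AECs against SECs.

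Tests used limma 3.58.1 in R 4.3.3 with a trend on log2(RPKM + 1), which understates changes of low genes, in place of the study's count test because the unit is log2 RPKM. A gene entered the fit at 0.1 RPKM or more in 3 or more libraries (16364 genes), the 3 groups had no block, and the Benjamini-Hochberg adjustment ran over all fitted genes. The fit was checked on simulated reads. Members and lists were chosen with earlier results of these data known. Named were the classical class I, class II, loading, proteasome and transactivator genes, any called member, and up to 4 called genes of each other list. Members without called values, such as H2-T23, H2-T24, H2-Q7, Psme2 and Tapbpl, and the markers Cd79a, Ptprc, Itgax, Flt3, Csf1r, Psmb5 and Ctss, were named after their values were seen. Correlations of deviations between libraries of equal number were 0.78, 0.65 and 0.12 (numbers 1, 3 and 4) for Nestin-GFPdim AECs against SECs. Against Nestin-GFPbright AECs they were 0.78, 0.42 and 0.15. Between Nestin-GFPbright AECs and SECs they were 0.71, 0.59 and -0.21. All but the last were positive, and for number 4 some libraries of unequal number correlated more. Nestin-GFPdim AEC library 4 reached 0.29 with SEC library 3 and 0.50 with Nestin-GFPbright AEC library 3. Pairing by number was thus not shown for the libraries numbered 4. All comparisons were also fitted with the number as a block. Promoters were RefSeq sequences on GRCm38.p6, and shared transcript sequence was counted in GENCODE M21. Python 3.11.15, pandas 2.3.3, numpy 2.4.6 and matplotlib 3.10.9 were used.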

Additional observations from a re-analysis of the deposited data

How the results depend on the processing

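The count of called members was 0 in each of the 4 comparisons, and leaving out any 1 library gave 0 to 0 in each. Weights per library called 4 members for AECs against SECs (H2-T23, H2-T24, Psme2 and Tapbpl) and 4 for Nestin-GFPbright AECs against SECs (H2-T23, Psme2, Tapbpl and H2-DMb1). The replicate block called 3 for AECs against SECs (H2-T24, H2-Ab1 and H2-DMb1) and 7 for Nestin-GFPbright AECs against SECs (H2-Q7 lower, and H2-T24, H2-Ob, H2-Eb1, H2-Aa, H2-Ab1 and H2-DMb1 higher). Libraries numbered 4 deviated oppositely in Nestin-GFPbright AECs against SECs (correlation -0.21, against 0.71 and 0.59 for numbers 1 and 3). Nestin-GFPdim AEC library 4 correlated weakly with library 4 of SECs (0.12) and of Nestin-GFPbright AECs (0.15). The numbers are thus not shown to pair the libraries numbered 4. Other alternatives (pseudocounts 0.1 and 0.01, the deposited log2 values, no low-value filter or one at 1 RPKM, no trend, a shift to one median, quantile normalization, the groups compared alone, voom, and libraries 3 and 4 alone) gave 0. Over all settings the smallest adjusted p of a member lay between 0.014 and 0.30 for AECs against SECs, 0.014 and 0.32 for Nestin-GFPbright AECs against SECs, 0.054 and 0.75 for Nestin-GFPdim AECs against SECs, and 0.37 and 1 between the AEC fractions.

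Of 897 refits of 42 named log2 fold changes, 881 kept their direction, 13 of them newly passing the threshold. With weights per library H2-K1 turned to 0.067, H2-DMb2 to -0.43 and H2-Oa to -0.12 in AECs against SECs, and Cd74 to -0.24 in Nestin-GFPdim AECs against SECs. With libraries 3 and 4 alone H2-DMb2 was at -0.013. Leaving out 1 library gave ranges across 0 in AECs against SECs for Cd74 (-0.10 to 2.58), H2-DMb2 (-0.85 to 1.29), H2-Oa (-0.37 to 0.96), H2-K1 (-0.24 to 0.069) and Nlrc5 (-0.062 to 0.37), and in Nestin-GFPdim AECs against SECs for Cd74 (-0.77 to 1.91). The count over all genes for AECs against SECs was 807, and 1717 with weights, 1333 with the replicate block and 262 to 491 without SEC library 1, 3 or 4 or Nestin-GFPbright AEC library 4. For Nestin-GFPbright AECs against SECs it was 750, and 2065 with weights, 1391 with the block and 277 to 464 without SEC library 1, 3 or 4 or Nestin-GFPbright AEC library 3 or 4. For Nestin-GFPdim AECs against SECs it was 319, and 513 with weights, 192 with the groups compared alone, 137 with voom 172 with libraries 3 and 4 alone, and 64 to 207 without SEC library 1, 3 or 4, Nestin-GFPdim AEC library 1 or 4 or Nestin-GFPbright AEC library 4. The cause of these shifts was not tested. H2-Q2, H2-Bl, H2-Eb2 and H2-Ke6 are limited by depth.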

Other observations

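Costimulatory and inhibitory ligands, which set the response of a T cell to a presented peptide, were examined as a list of 10 listed genes. In AECs against SECs, 3 were higher and 0 lower at an adjusted p under 0.05 (limma), against 1.94% of all tested genes called higher. Cd274, which encodes the inhibitory ligand PD-L1, was at 5.41, 13.9 and 19.9 RPKM in Nestin-GFPbright AECs, 5.29, 11.7 and 13.2 RPKM in Nestin-GFPdim AECs, and 1.70, 1.05 and 1.94 RPKM in SECs (log2 fold change 2.18, SE 0.42, adjusted p = 0.022). Cd40, a receptor of the TNF family, was at 4.55, 9.11 and 7.06 RPKM in Nestin-GFPbright AECs, 5.73, 15.7 and 4.90 RPKM in Nestin-GFPdim AECs, and 2.18, 0.941 and 1.34 RPKM in SECs (log2 fold change 1.75, SE 0.38, adjusted p = 0.037). Lgals9, a galectin, averaged 262 ± 54.2 RPKM in AECs and 142 ± 23.6 RPKM in SECs (log2 fold change 0.87, SE 0.20, adjusted p = 0.044). None of the 3 was highest in library 1 of both AEC groups. In SECs, Cd40 and Lgals9 were highest in library 1, and Cd40 and Cd274 were lowest of all libraries in SEC library 3. The part of blood cells in these levels was not tested. Cd80 and Cd86, the classical ligands of CD28, were at most 3.29 and 3.45 RPKM and had no read in Nestin-GFPdim AEC library 4 and SEC library 3.

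Of 10 interferon receptor and signalling genes, Jak1 was the 1 called, lower in AECs at 67.8 ± 23.6 RPKM against 308 ± 73.1 RPKM in SECs (log2 fold change -2.20, SE 0.28, adjusted p = 0.0035). Among all tested genes, 2.99% were called lower and 1.94% higher. Fcgrt, which encodes the class I-like neonatal Fc receptor, was at 66.8, 214 and 225 RPKM in Nestin-GFPbright AECs, 374, 1068 and 344 RPKM in Nestin-GFPdim AECs, and 969, 1725 and 1214 RPKM in SECs. It was called lower in Nestin-GFPbright AECs against SECs (log2 fold change -3.09, SE 0.60, adjusted p = 0.024) and missed the threshold for both AEC groups averaged (adjusted p = 0.052). Ebf1, which stands in the B cell list, was higher in AECs (17.3 ± 5.99 RPKM against 2.43 ± 1.99 RPKM in SECs, adjusted p = 0.0085) and did not follow Cd79a over the AEC libraries. In SECs it did, at 4.51, 0.547 and 2.24 RPKM in libraries 1, 3 and 4. Xbp1, of the plasma cell list, averaged 82.4 RPKM in Nestin-GFPbright AECs, 174 RPKM in Nestin-GFPdim AECs and 453 RPKM in SECs (adjusted p = 0.0095 for AECs against SECs). It was the 1 called gene of the 4 plasma cell genes tested, and their median log2 fold change went the other way, at 0.49.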
